A study of Mus musculus with 12 samples.

Results

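The difference between CD34- and CD34+ myeloid cells of the mammary gland was compared between a high-fat and a low-fat diet. All 12 samples of the series were used, as 6 pairs: on each diet the CD34- and the CD34+ sample with the same number formed a pair, and the log2 value in CD34+ cells was subtracted from that in CD34- cells. The mean of the 3 high-fat pair differences minus the mean of the 3 low-fat pair differences is called the interaction below, so a positive value means that CD34- cells stood higher relative to CD34+ cells on the high-fat diet (HFD) than on the low-fat diet (LFD). It was tested for 594 of the 760 genes measured.

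The samples came from mammary glands of female FVB/N mice, 3 per diet, whose feeding began at the age of 3 weeks and lasted 16 weeks. The high-fat diet was Test Diet 58Y1 and the low-fat diet Teklad Global 2920X. The 4 groups of 3 samples were HFD CD34-, HFD CD34+, LFD CD34- and LFD CD34+ cells. All were live CD45+CD11b+ cells, sorted after digestion of the gland with collagenase and trypsin, and the labels call the CD34- cells monocytes and macrophages and the CD34+ cells myeloid progenitors. Amplified RNA was counted with barcoded probes on the NanoString nCounter Fibrosis V2 panel. FVB/N is an inbred strain, and the series design gives the high-fat diet as the means to induce obesity.

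CD34 is a surface sialomucin of blood progenitors and of the cells that line vessels, and CD11b is an integrin of monocytes, macrophages, neutrophils and many NK cells. A gene whose population difference depends on diet is one whose diet difference is unequal in the sorted fractions. In a sorted bulk sample, such a gene may be expressed differently per cell or come from a cell type whose share in the gate differs, and fewer cells of a type and less RNA per cell cannot be told apart. Fat tissue in obesity is known to gain macrophages and to hold changed numbers of T cells and NK cells.

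On the values as deposited, 9 genes passed the threshold, a Benjamini-Hochberg adjusted p under 0.05 in limma. All 9 had a positive interaction. Described here are 8 of them: the T cell receptor subunit genes Cd3d, Cd3e and Cd3g, the cytokine signalling genes Il21r, Jak2 and Irf1, the prostaglandin receptor gene Ptger4 and the neuropilin gene Nrp2. The 9 are 1.52% of the genes tested, and 0 genes (0%) passed with a negative interaction. At an unadjusted p under 0.05 limma gave 112 genes with a positive (18.9%) and 5 with a negative interaction (0.842%). In each of the 9 the 3 high-fat pair differences lay above the 3 low-fat ones, as they did in 136 of 594 genes (22.9%). After each sample was re-centred on its median, the 9 interactions stayed above 0 but 0 genes passed in either direction (0%), with adjusted p of 0.0954 to 0.42 for the 9. In that fit limma gave 36 genes higher (6.06%) and 18 lower (3.03%) at an unadjusted p under 0.05. As deposited, 0 genes passed with no replicate block in the fit (52 higher and 0 lower at an unadjusted p under 0.05) and 0 without LFD pair 2 (85 higher). Without LFD pair 1 only Il21r passed, and without HFD pair 1 Il21r, Cd3e, Nrp2 and Ptger4 did, while 18 genes without HFD pair 2 and 28 without LFD pair 3 were called higher.

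The scale of the samples matters to every value here, because the median pair difference over all genes tested stood higher on the high-fat diet. The median pair difference over the 594 genes was 0.06, 0.20 and 0.39 in HFD pairs 1, 2 and 3, against -0.30, -0.15 and -0.00 in LFD pairs 1, 2 and 3. The diets did not overlap, and their means of 0.22 ± 0.17 and -0.15 ± 0.15 (SD, n = 3 pairs each) differed by 0.37, with an exact two-sided permutation p of 0.1, the smallest that 3 against 3 pairs can give. The interaction was above 0 in 464 genes (78.1%), with a median of 0.36, and in 315 genes (53%), with a median of 0.03, after re-centring. Whether this shift belongs to the cells or to the scale of the libraries cannot be told apart with these values. The median log2 value of a library was 7.26, 7.44 and 7.33 in HFD CD34- cells and 7.14, 7.11 and 6.94 in HFD CD34+ cells. It was 6.94, 6.77 and 7.37 in LFD CD34- cells and 7.05, 6.78 and 7.40 in LFD CD34+ cells. Recovered totals ran from 78316 to 780070 counts per library, the lowest in LFD CD34- replicate 3.

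**Figure D1:**
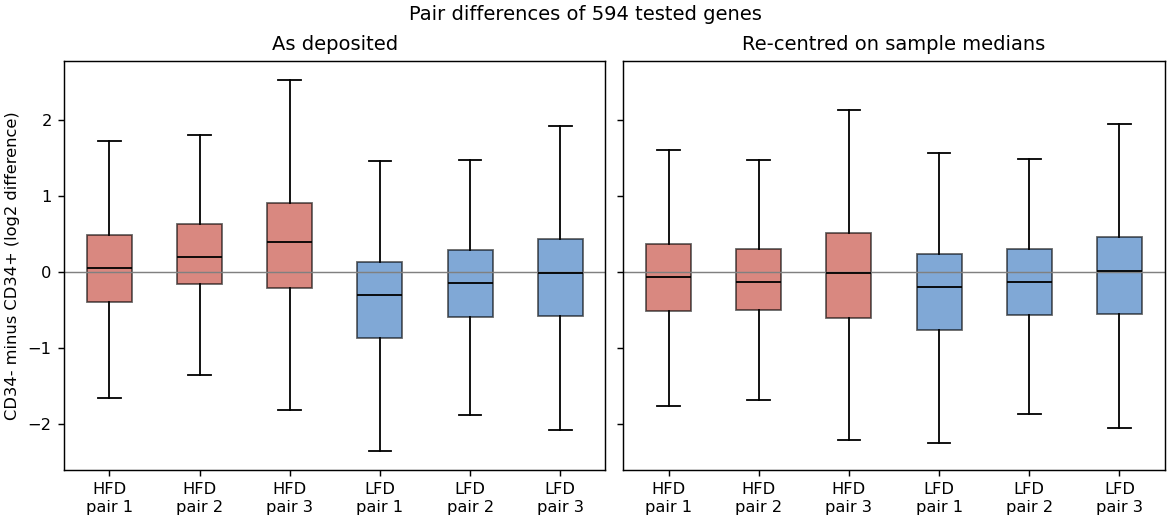
Pair differences of the 594 tested genes (log2, CD34- minus CD34+) in each of the 3 HFD pairs (red) and 3 LFD pairs (blue), as deposited and after re-centring each sample on its median. Boxes span the quartiles with the median as a line, and whiskers reach the farthest gene within 1.5 box heights. The HFD medians of 0.06 to 0.39 lie above the LFD medians of -0.30 to -0.00 as deposited, and the medians lie between -0.20 and 0.02 after re-centring.

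Cd3d, Cd3e and Cd3g encode the CD3 chains that carry the signal of the T cell receptor, and in the RefSeq annotation they are neighbours on chromosome 9. On both diets they were higher in CD34- than in CD34+ samples in every pair, and the gap was wider on the high-fat diet. Cd3d differed by 2.50, 2.15 and 2.40 in HFD pairs 1, 2 and 3, against 0.79, 1.07 and 0.73 in LFD pairs, an interaction of 1.49 ± 0.29 (SE, limma adjusted p = 0.0169). The low-fat gap was about as tight as the high-fat one, with an SD of 0.18 over each set of 3 pairs. Its log2 values in replicates 1, 2 and 3 were 8.82, 9.54 and 8.16 in HFD CD34- cells and 6.33, 7.39 and 5.76 in HFD CD34+ cells. On the low-fat diet they were 8.40, 8.50 and 9.62 in CD34- cells and 7.61, 7.43 and 8.89 in CD34+ cells. The CD34- samples of the diets overlapped, and the 3 HFD CD34+ samples lay below the 3 LFD CD34+ samples.

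Cd3e showed the widest high-fat gap of these genes, at 2.20, 2.69 and 3.22 in HFD pairs 1, 2 and 3, against 0.74, 1.00 and 1.45 in LFD pairs (interaction 1.64 ± 0.32 SE, limma adjusted p = 0.0169). Its values were 9.24, 10.37 and 8.76 in HFD CD34- cells and 7.04, 7.68 and 5.54 in HFD CD34+ cells. On the low-fat diet they were 8.75, 8.89 and 10.93 in CD34- cells and 8.01, 7.89 and 9.48 in CD34+ cells. For Cd3e too, only the CD34+ samples of the diets were apart. Cd3g differed by 2.56, 2.23 and 2.52 in HFD pairs, against 0.91, 1.21 and 1.07 in LFD pairs (interaction 1.37 ± 0.29 SE, limma adjusted p = 0.0336). It averaged 8.75 ± 0.84 in HFD CD34- cells and 6.31 ± 0.98 in HFD CD34+ cells, against 8.74 ± 0.74 in LFD CD34- cells and 7.67 ± 0.75 in LFD CD34+ cells (SD, n = 3 each), and its CD34+ samples overlapped between diets. LFD replicate 3 was the highest LFD sample of each of these 3 genes in both populations. HFD CD34+ replicate 3 was the lowest of all 12 samples. With the mouse as a random effect the CD3 genes did not pass, at a limma adjusted p of 0.142 for Cd3d and 0.158 for both Cd3e and Cd3g.

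Il21r, which encodes the receptor of interleukin 21, a cytokine of helper T cells, had the largest interaction of the 9 genes and the smallest p. Its CD34- samples stood above their CD34+ partners by 1.42, 1.69 and 1.51 in HFD pairs 1, 2 and 3. In LFD pairs 1 and 2 they stood below them, at -1.20 and -1.01, and in pair 3 slightly above, at 0.26. The interaction was 2.19 ± 0.35 (SE, limma adjusted p = 0.0102). Its log2 values were 8.70, 9.26 and 8.23 in HFD CD34- cells and 7.28, 7.57 and 6.72 in HFD CD34+ cells. They were 8.41, 8.03 and 9.30 in LFD CD34- cells and 9.62, 9.05 and 9.04 in LFD CD34+ cells. The CD34+ samples were thus apart between diets by more than 1 log2 unit, with the high-fat samples low, while the CD34- samples overlapped. Without LFD pair 3, which holds the shallowest library, the interaction of Il21r was 2.65 (adjusted p = 0.000323), and after re-centring as well it was 2.31 (adjusted p = 0.00262).

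Jak2 encodes a kinase bound to many cytokine receptors. Its high-fat pair differences of 0.12, 0.19 and -0.07 lay near 0, and its low-fat ones were -1.17, -1.07 and -0.62 (interaction 1.03 ± 0.24 SE, limma adjusted p = 0.0388). As deposited, values of 10.62, 10.32 and 10.15 in HFD CD34- cells exceeded the 9.97, 9.66 and 9.74 of LFD CD34- cells, but these overlapped after re-centring. In CD34+ cells the diets overlapped, at 10.51, 10.12 and 10.22 on the high-fat diet and 11.14, 10.73 and 10.36 on the low-fat diet. With the mouse as a random effect Jak2 did not pass (limma adjusted p = 0.0519). Irf1, a transcription factor gene induced by interferon gamma, followed a like course over the pairs, with 0.62, -0.02 and 0.12 on the high-fat diet and -1.28, -1.07 and -0.61 on the low-fat diet (interaction 1.23 ± 0.27 SE, limma adjusted p = 0.0367). Here the CD34+ samples were apart, at 8.80, 9.54 and 8.85 on the high-fat diet and 10.48, 10.13 and 9.87 on the low-fat diet. The CD34- samples overlapped, at 9.41, 9.53 and 8.98 on the high-fat diet and 9.20, 9.05 and 9.26 on the low-fat diet.

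Promoters were read for the 8 genes described, which had all passed the threshold with a positive interaction. All 8 had an entry in RefSeq's table for GRCm38.p6 (250 bases before to 50 after a start). Motifs for STAT factors (TTCNNNGAA), for interferon regulatory factors (2 times GAAA with NN between) and for RUNX factors (TGTGGT) were searched on both strands. The STAT-type motif was found once each in Cd3d and in the first of the Irf1 entries, and in 8.30% of all 32851 promoters. The RUNX-type motif was found once in Il21r and in 16.8% of all promoters, and the interferon-type motif in none of the 8 genes' entries and in 3.44% of all. A match in letters is a description and does not show binding. The entries that hold a match are shown because they belong to the gene with the largest interaction, to a CD3 gene and to the interferon-induced factor, with the matched letters in capitals: Cd3d at chr9:44981536-44981835 and Irf1 at chr11:53769764-53770063 (STAT-type), and Il21r at chr7:125603179-125603478 (RUNX-type, on the reverse strand), all genes being on the plus strand.
Cd3d: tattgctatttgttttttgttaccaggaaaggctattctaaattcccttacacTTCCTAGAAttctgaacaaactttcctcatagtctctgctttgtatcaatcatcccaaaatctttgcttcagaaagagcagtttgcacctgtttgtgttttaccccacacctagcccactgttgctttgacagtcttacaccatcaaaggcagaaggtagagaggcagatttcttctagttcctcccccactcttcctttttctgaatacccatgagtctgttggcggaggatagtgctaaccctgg
Irf1: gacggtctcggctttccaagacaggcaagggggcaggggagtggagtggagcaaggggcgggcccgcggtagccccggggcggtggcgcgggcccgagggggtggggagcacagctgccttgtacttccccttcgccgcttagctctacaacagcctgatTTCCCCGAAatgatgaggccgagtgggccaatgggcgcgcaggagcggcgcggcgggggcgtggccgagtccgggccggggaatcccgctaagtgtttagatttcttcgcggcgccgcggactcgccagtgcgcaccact
Il21r: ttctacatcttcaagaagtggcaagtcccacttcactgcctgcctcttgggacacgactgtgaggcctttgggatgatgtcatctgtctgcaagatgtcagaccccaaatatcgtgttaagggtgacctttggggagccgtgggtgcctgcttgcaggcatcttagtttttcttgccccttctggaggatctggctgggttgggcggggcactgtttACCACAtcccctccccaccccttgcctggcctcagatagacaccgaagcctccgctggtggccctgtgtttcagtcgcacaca

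Ptger4 encodes a receptor of prostaglandin E, which is known to dampen macrophage activation. It differed by -0.23, 0.22 and 0.80 in HFD pairs 1, 2 and 3, against -1.19, -1.20 and -0.71 in LFD pairs (interaction 1.30 ± 0.30 SE, limma adjusted p = 0.0388). As deposited, both populations were apart between diets, in opposite directions. Its values were 9.20, 9.14 and 9.40 in HFD CD34- cells, above 8.62, 8.37 and 8.96 in LFD CD34- cells. In CD34+ cells they were 9.43, 8.92 and 8.60 on the high-fat diet, below 9.81, 9.57 and 9.67 on the low-fat diet. After re-centring, the CD34- samples stayed apart between diets and the CD34+ samples overlapped.

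Nrp2, the gene of a co-receptor for semaphorins and vascular growth factors, was the only one of the 8 that was lower in CD34- cells in all 6 pairs. It differed by -0.78, -0.83 and -0.62 in HFD pairs, against -2.42, -2.10 and -1.92 in LFD pairs (interaction 1.41 ± 0.26 SE, limma adjusted p = 0.0169), so its population gap was narrower on the high-fat diet. As deposited, values of 8.63, 8.21 and 8.70 in HFD CD34- cells lay above 7.97, 7.72 and 7.98 in LFD CD34- cells, but these overlapped after re-centring. Values of 9.42, 9.04 and 9.32 in HFD CD34+ cells lay below 10.39, 9.82 and 9.90 in LFD CD34+ cells, and these stayed apart after re-centring.

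**Figure D2:**
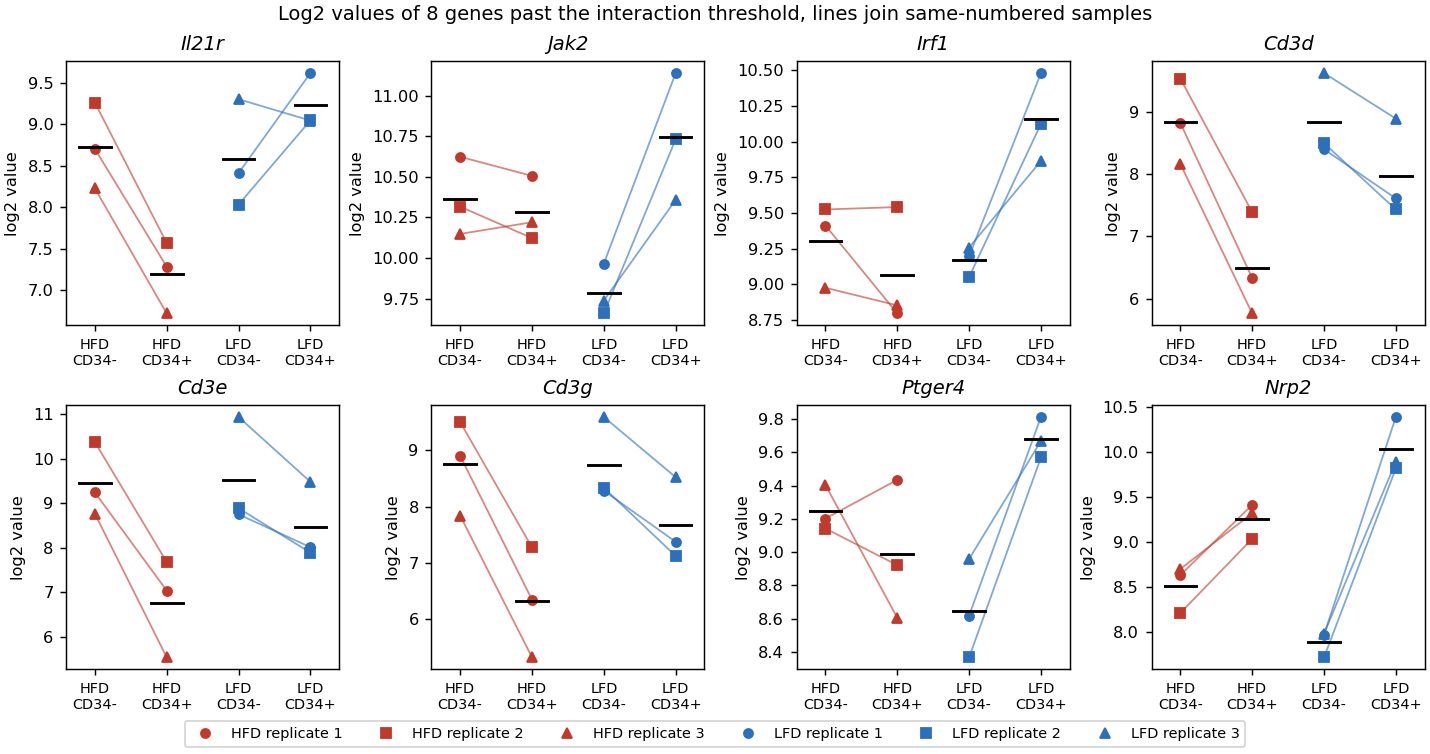
Log2 values of 8 genes past the threshold in each of the 12 samples, HFD in red and LFD in blue, with lines joining same-numbered CD34- and CD34+ samples and black bars for the mean of 3. The axes differ between genes and do not start at 0. The CD3 genes slope down from CD34- to CD34+ on both diets, and Nrp2 slopes up on both. Jak2, Irf1 and Ptger4 slope up on LFD. On HFD Jak2 is about level, and the slopes of Irf1 and Ptger4 differ between pairs.

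The 8 genes fell into 4 kinds by the sign of their pair differences. The CD3 genes were higher in CD34- cells on both diets, Nrp2 was lower on both, and Il21r had all 3 HFD pairs above 0 and 2 of 3 LFD pairs below. Jak2, Irf1 and Ptger4 had every LFD pair below 0 and HFD pairs on both sides of 0. The same interaction can be read as the diet difference in CD34- cells minus that in CD34+ cells. In CD34+ cells the mean difference, high-fat minus low-fat, was negative for all 8 genes, from -2.05 for Il21r to -0.46 for Jak2. In CD34- cells it was between -0.07 and 0.15 for Il21r, Irf1 and the 3 CD3 genes, and it was 0.63, 0.60 and 0.58 for Nrp2, Ptger4 and Jak2. These means are as deposited and move with the scale of the libraries, and they carry no test of their own here.

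**Figure D3:**
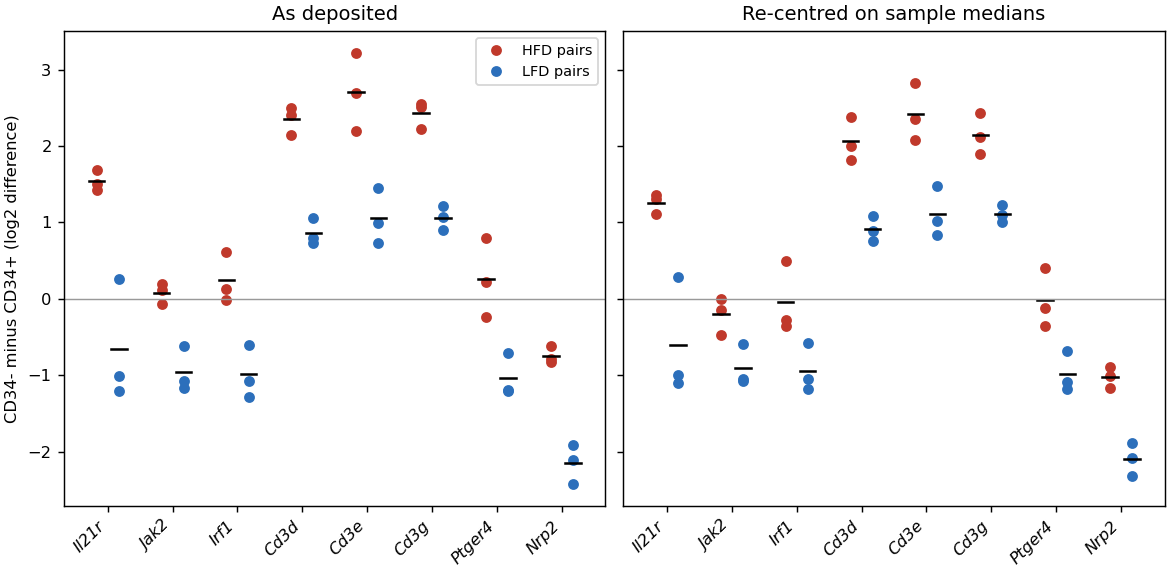
Pair differences (log2, CD34- minus CD34+) of the same 8 genes in the 3 HFD pairs (red) and the 3 LFD pairs (blue), as deposited on the left and re-centred on the right, with black bars for means of 3. The interaction of Il21r is 2.19 as deposited and 1.86 re-centred, and that of Jak2 is 1.03 and 0.70.

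Re-centring lowered each interaction by the same 0.33 on the log2 scale. Il21r then had an interaction of 1.86 ± 0.36 (SE, limma adjusted p = 0.0954), Cd3e of 1.31 ± 0.30 (0.192), Cd3d of 1.16 ± 0.28 (0.196) and Nrp2 of 1.08 ± 0.25 (0.192). These 4 genes had the 4 smallest p-values of that fit as well. Jak2 ranked lowest of the 8, as number 20 of 594, at 0.70 ± 0.25 (0.42). The re-centred pair differences did not overlap between diets in 54 genes with higher HFD pairs (9.09%) and in 28 with lower HFD pairs (4.71%).

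The CD3 genes belong to a list of 19 T cell genes, of which 9 were measured and tested. All 9 had a positive interaction, with a median of 1.37 against 0.36 over all 594 genes, and 3 passed. Of all genes tested, 78.1% were above 0 and 1.52% passed with a positive interaction. After re-centring the T cell median was 1.04 against 0.03, all 9 stayed above 0, against 53% of all genes tested, and 0 passed. The HFD pairs did not overlap the LFD pairs in 8 of the 9, against 22.9% of all genes tested. Cd6, a T cell co-receptor gene, had an interaction of 1.46 (limma adjusted p = 0.0842) and Foxp3, the factor of regulatory T cells, one of 1.52 (0.133). The co-receptor genes Cd8b1, Cd4 and Cd8a stood at 1.27, 0.91 and 0.90, and the costimulator gene Icos at 0.87 (adjusted p of 0.171 to 0.256 for these 4). Cd6, Cd4, Cd8a, Cd8b1, Icos and Foxp3 were named after their values were seen.

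Of the 9 tested NK cell genes, 8 had an interaction below 0 and none passed. Their median interaction was -0.65, with 1, Nkg7, above 0 at 0.20, and after re-centring it was -0.98 with 0 above 0. Of all genes tested, 78.1% were above 0 as deposited and 53% after re-centring. In 3 NK list members limma gave an unadjusted p under 0.05, all with a negative interaction, against 0.842% of all genes tested. They were the granzyme genes Gzmb at -1.34 ± 0.50 and Gzma at -1.55 ± 0.62 (SE), and the chemokine gene Xcl1 at -0.86 ± 0.35 (limma adjusted p of 0.171, 0.195 and 0.195). Xcl1 differed by 2.88, 3.24 and 3.94 in HFD pairs 1, 2 and 3, against 3.99, 4.30 and 4.34 in LFD pairs, with no overlap. Gzmb differed by 3.46, 2.76 and 5.32 in HFD pairs, against 5.19, 5.43 and 4.93 in LFD pairs, and its HFD pair 3 lay within the LFD range. Without HFD pair 3, Gzmb was at -2.08 (adjusted p = 0.00596), and re-centred as well at -2.35 (0.0113). The NK receptor gene Ncr1 had an interaction of -1.54 with a wide spread (adjusted p = 0.287) and as few as 3 counts in a library. A wider list of 11 tested cytotoxic and NK cell genes, which holds these 9, had 3 above 0 and a median of -0.64. Re-centred, it had 1 above 0 and a median of -0.97.

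Within a pair, the distance between these lists does not depend on the scale of the libraries. The median T cell pair difference minus the median NK cell pair difference was -1.07, -1.09 and -1.68 in HFD pairs 1, 2 and 3, against -2.81, -2.10 and -3.94 in LFD pairs. Every HFD pair lay above every LFD pair. The CD34- excess of T cell genes was thus closer to that of NK genes on the high-fat diet, a description with no test, as the lists were chosen with results of these data known.

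The sort selected CD11b+ cells, and T cell genes were counted in all 4 groups. The summed linear level of the 9 T cell genes was 1686 to 5456 in HFD CD34- samples and 326 to 1344 in HFD CD34+ samples. It was 2230 to 6405 in LFD CD34- samples and 1402 to 2977 in LFD CD34+ samples, so the CD34+ samples of the diets did not overlap. For the 9 NK genes the sum was 3135 to 5510 in HFD CD34- and 409 to 992 in HFD CD34+ samples, and 2455 to 14587 in LFD CD34- and 597 to 672 in LFD CD34+ samples. In no group were any of these 18 genes at 1 count or less in all samples. The part of T cells in the result for the CD3 genes and the other genes past the threshold was not tested.

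**Figure D4:**
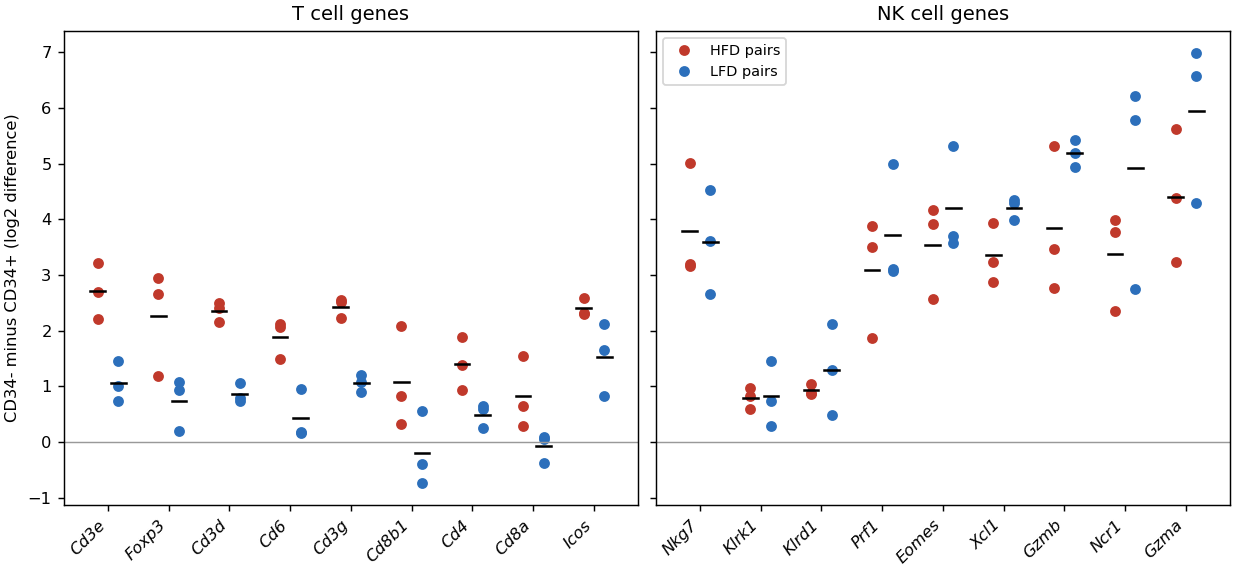
Pair differences (log2, CD34- minus CD34+) of the 9 tested T cell genes and the 9 tested NK cell genes, HFD pairs in red and LFD pairs in blue, with black bars for means of 3. The HFD means lie above the LFD means for all 9 T cell genes and below them for 8 of 9 NK cell genes.

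The other pathway lists held 1 passing gene, Irf1, among 9 tested interferon response genes (median 0.42, with 7 above 0). Among 14 Toll-like receptor and NF-kB genes, 13 were above 0 and 0 passed in limma (4 at an unadjusted p under 0.05, all positive; median 0.61 and 0.28 re-centred). Over all genes tested, 78.1% were above 0 and 18.9% were higher at an unadjusted p under 0.05, with medians of 0.36 and 0.03 re-centred. Ikbkb, the gene of the kinase that releases NF-kB, came nearest, at 0.47, 0.40 and 0.89 in HFD pairs, against -1.23, -0.87 and -0.18 in LFD pairs. Its interaction was 1.35 ± 0.33 (SE, limma adjusted p = 0.0572), and 0.0431 with the mouse as a random effect, the fit in which the CD3 genes and Jak2 did not pass. The NF-kB subunit gene Relb stood at 0.89 (0.0921) and Traf6, an adaptor below the receptors, at 1.04 (0.127).

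All 15 tested MAPK, PI3K and RAS genes had a positive interaction, with a median of 0.68 (0.35 re-centred, 13 above 0), and limma called 0 of them and gave 5 at an unadjusted p under 0.05. Over all genes tested, 78.1% were above 0 and 18.9% were higher at an unadjusted p under 0.05. The kinase gene Braf stood at 1.06 ± 0.34 (adjusted p = 0.126) and Map3k1 at 0.75 (0.195). In 5 tested genes of the MHC class I pathway, by which cells present peptides of their own proteins, all interactions were above 0 (median 0.64). Among them were H2-D1 at 0.74 and H2-M3 at 0.64 (adjusted p = 0.171 and 0.244). In 8 tested genes of the MHC class II pathway, which marks antigen-presenting cells, only the regulator gene Ciita was above 0, at 0.48. The median of the 8 was -0.13, or -0.46 re-centred. Neither MHC list held a gene past the threshold.

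For chemokine receptors the median was 0.45 over 6 tested genes. Cxcr3, of effector T cells, stood at 1.23, Cxcr4, the receptor of the retention signal Cxcl12, at 0.88, and Ccr7, of migrating dendritic cells and T cells, at 0.74 (limma adjusted p = 0.169, 0.0921 and 0.135). Ccr7 was lower in CD34- cells in all 6 pairs, by -1.08, -0.64 and -0.69 on the high-fat diet and -1.41, -1.96 and -1.27 on the low-fat diet. Of 8 chemokine ligands the neutrophil attractant gene Cxcl1 stood at 0.86 (0.14). The 5 inflammatory cytokine genes had a median of 0.03 (-0.30 re-centred), and limma gave 0 of them at an adjusted or an unadjusted p under 0.05. At that unadjusted level 18.9% of all genes tested were higher and 0.842% lower.

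Matrix lists lay at or below the median of all genes. The 7 tested collagens had a median of 0.36, the 10 matrix glycoprotein and crosslinking genes of 0.02, and the 14 proteases and inhibitors of 0.06, with 0 past the threshold in limma and 0, 1 and 0 at an unadjusted p under 0.05. The 1 was Fn1, the fibronectin gene, at 0.60 (adjusted p = 0.252). Among all genes tested, 1.52% passed with a positive interaction and 18.9% were higher at an unadjusted p under 0.05. Col3a1, a fibrillar collagen gene, differed by -1.90, -4.62 and -1.24 in HFD pairs 1, 2 and 3, against -3.87, -3.29 and -4.11 in LFD pairs. HFD pair 2 lay below all 3 LFD pairs, and HFD pairs 1 and 3 lay above them. The summed level of 7 measured fibroblast genes was 5714 in HFD CD34+ replicate 2, against 752 and 685 in replicates 1 and 3 of that group, and the part of fibroblast RNA was not tested. Without HFD pair 2 the interaction of Col3a1 was 2.18 (adjusted p = 0.0119), against 1.17 (0.316) with it, and it was 1.88 (0.105) re-centred.

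In the lipid list 14 of 17 tested genes were above 0 (median 0.37), and none passed in limma (3 at an unadjusted p under 0.05, all positive). These counts and the median lie near those of all genes tested, of which 78.1% were above 0 and 18.9% were higher at an unadjusted p under 0.05, and whose median was 0.36. Fabp5, a fatty acid carrier gene of macrophages, differed by -1.05, -0.86 and -1.76 in HFD pairs, against -2.30, -2.42 and -2.04 in LFD pairs, an interaction of 1.03 ± 0.26 (SE, adjusted p = 0.0621). It was lower in CD34- cells in all 6 pairs, and less so on the high-fat diet. The desaturase gene Scd2 stood at 0.64 (0.244), and the fat cell hormone gene Adipoq at 2.08 (0.142), with as little as 1 Adipoq count in a library. Hmox1, which degrades heme, stood at 0.63 (0.234), the hypoxia factor gene Hif1a at 0.69 (0.171) and the TGF-beta receptor gene Tgfbr2 at 0.97 (0.121). The immediate early gene Jun stood at 0.82 (0.206), the proliferation marker Mki67 at 0.89 (0.211) and the complement receptor gene C3ar1 at 0.72 (0.244).

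**Figure D5:**
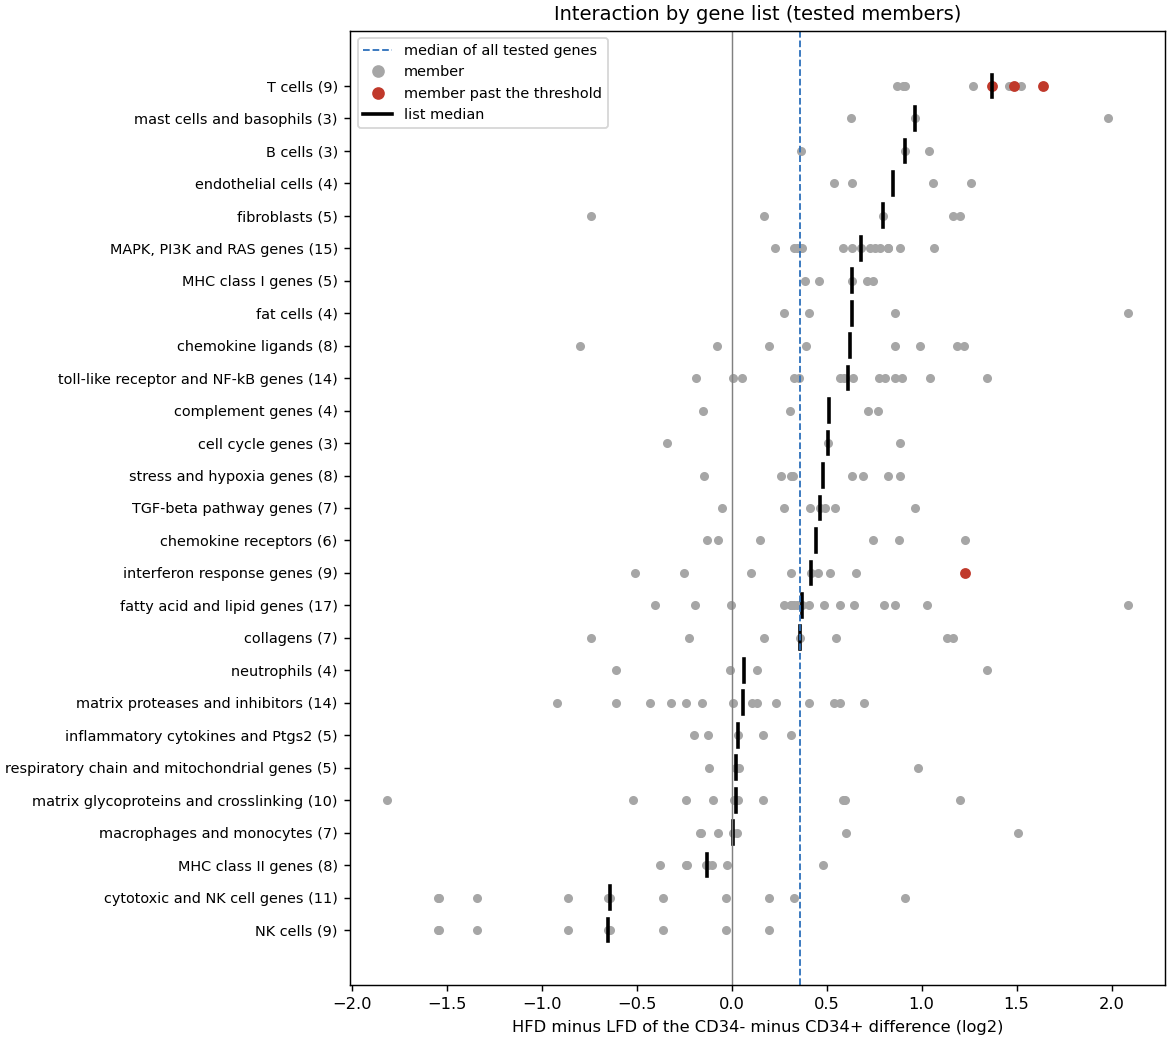
Interaction (log2, HFD minus LFD) of the tested members of each list with at least 3, grey for members that did not pass and red for those that did, with the list median as a black bar and the median of all 594 genes, 0.36, as a dashed line. Red points are seen in the T cell list (3) and the interferon response list (1), and the NK cell list has its median at -0.65.

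Some cell type lists were small. Of 7 tested macrophage and monocyte genes 4 were above 0 (median 0.01, or -0.32 re-centred), with the scavenger receptor gene Cd163 at 1.51 (adjusted p = 0.133) and the growth factor receptor gene Csf1r at 0.60 (0.228). Cd163 was lower in CD34- cells in every pair, by -0.64, -0.999 and -1.44 on the high-fat diet and -2.74, -2.01 and -2.85 on the low-fat diet, with as few as 5 counts in a library. The summed level of the 8 measured macrophage genes was 5704 to 8327 in HFD CD34- and 8141 to 12887 in HFD CD34+ samples, against 3199 to 4005 in LFD CD34- and 3645 to 7738 in LFD CD34+ samples. The 4 tested neutrophil genes had a median of 0.06, with 2 above 0 and none past the threshold, and only the receptor gene Fpr1, at 1.34 (0.234), had an unadjusted p under 0.05. The 4 tested endothelial genes had a median of 0.85, all above 0 and none past the threshold, and only the receptor gene Flt1, at 1.26 (0.164), had an unadjusted p under 0.05. For these lists, the shares over all genes tested were 78.1% above 0 and 18.9% higher at an unadjusted p under 0.05. Siglecf, the single eosinophil marker measured, stood at -1.81 (0.199) with at least 3 counts in each library, and its HFD pairs of -1.54, -2.18 and -1.49 lay below its LFD pairs of -1.17, 0.07 and 1.34. No epithelial marker of the list was measured.

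Further negative interactions at the edge of the ranking were those of Ctsd, a lysosomal protease gene, at -0.72 ± 0.29 (SE, adjusted p = 0.195), Lox, which crosslinks collagen, at -1.81 (0.274), and Eef2k, a kinase gene of translation, at -1.24 (0.29). Lox had as few as 3 counts in a library and Eef2k as few as 6. The log2 value of Lox in HFD CD34+ cells was 7.15 in replicate 2, against 5.18 and 4.60 in replicates 1 and 3. The HFD pairs lay wholly below the LFD pairs in 7 genes (1.18%), among them Ctsd, Eef2k, Xcl1 and Siglecf.

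In 20 genes (3.37%) every HFD pair difference was above 0 and every LFD pair difference below 0, and in 0 genes (0%) the reverse held. After re-centring the counts were 7 (1.18%) and 6 (1.01%), so the one-sidedness moved with the scale. None of the 9 passing genes was among the 20. Ikbkb, the prolactin receptor gene Prlr and the deacetylase gene Sirt1 were in the set under both scales. Prlr differed by 0.34, 0.52 and 1.73 in HFD pairs, against -1.63, -0.91 and -0.09 in LFD pairs (interaction 1.74, limma adjusted p = 0.0842). Sirt1 differed by 1.01, 0.48 and 1.19 in HFD pairs, against -0.85, -0.20 and -0.30 in LFD pairs (1.34, 0.06). Prlr and Sirt1 were named after their values were seen.

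The genes of the sort markers bear on the labels. Cd34 had an interaction of 1.34 ± 0.66 (SE, adjusted p = 0.274), with pair differences of 0.11, -1.29 and 0.16 on the high-fat diet and -1.43, -0.67 and -2.93 on the low-fat diet. Its log2 values were 5.40, 5.14 and 5.27 in HFD CD34- cells and 5.29, 6.44 and 5.11 in HFD CD34+ cells. They were 4.41, 4.30 and 2.85 in LFD CD34- cells and 5.84, 4.96 and 5.78 in LFD CD34+ cells. As deposited, Cd34 RNA was therefore lower in the CD34- sample in 3 of 3 LFD pairs and in 1 of 3 HFD pairs, at 2 to 130 counts per library. In HFD pairs 1 and 3 the library medians, 7.26 against 7.14 and 7.33 against 6.94, differed by more than Cd34 did. The count of HFD pairs thus depends on the scale, and after re-centring Cd34 was lower in the CD34- sample in every pair, with an interaction of 1.01. Ptprc, the gene of CD45, was higher in CD34- cells in all 6 pairs, by 0.75, 0.94 and 0.93 on the high-fat diet and 0.41, 0.47 and 0.39 on the low-fat diet (interaction 0.44 ± 0.21 SE, adjusted p = 0.255). After re-centring, the interaction of Ptprc was 0.11. For CD11b, the gene Itgam was not analysed here.

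The authors' deposited tables of selected genes divide the 8 genes by diet. The authors' deposited table for CD34- against CD34+ cells on the high-fat diet lists 135 genes, among them Il21r, Cd3d, Cd3e and Cd3g. The authors' deposited table for the low-fat diet lists 31 genes, among them the other 4, Nrp2, Irf1, Ptger4 and Jak2. The authors' deposited table of diet differences in CD34+ cells lists 7 genes and holds Il21r and Irf1, and that for CD34- cells lists 117 and holds Nrp2, Jak2 and Cd34. These tables rest on the same samples as the interaction.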

How the data were processed

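The authors deposited log2 values of 760 genes in 12 samples, normalized per sample by a factor (basis not given in the sources used here). Per the labels' protocols, RNA was amplified with a low-input kit before counting. Low values were whole counts times 1 factor per sample, taking the lowest value as 1 count, and 98.0% to 99.7% of a sample's values were whole within 0.1. Totals of 78316 to 780070 recovered counts set the precision of low values, covering counting error only, since amplified molecules are not independent. The authors' 4 deposited tables hold gene-centred log2 values, which matched the main table within 3.33e-10, beside the authors' cluster numbers (of other kind, not used). Of the 760 symbols, 748 were found in RefSeq's gene table as such, 9 as synonyms and 3 not at all.

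Tested genes reached 20 on the linear scale in 3 or more samples. The third-highest linear value was 20.1 and 20.6 in the 2 genes just inside this limit and 19.3 in both just outside. limma 3.58.1 (R 4.3.3, statmod 1.5.0) was fitted to the log2 values with 1 term per mouse and a population difference per diet, moderated with a mean-variance trend, with 4 residual degrees of freedom. Tests were two-sided, with Benjamini-Hochberg adjustment over all tested genes. The fit was tested on simulated data with independent errors and no overall shift of the pair differences between diets. The simulation therefore does not bear on the shift seen here.

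Pairs came from the sample numbers: deviations from group means correlated at 0.306 to 0.434 in the 6 same-numbered pairs of a diet and at -0.375 to 0.143 in the 12 other combinations, and the labels give 3 mice per diet. The mice, and not the genes, were the replicates. Moderation added a median of 11.1 prior degrees of freedom, estimated over all genes, to the 4 residual ones of each gene. The error behind a p-value therefore rests partly on the other genes. No samples of a group were copies, as the chi-square of their counts over its degrees of freedom was never under 15.1.

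Named genes were, by rule, those past the threshold, those with the smallest p where fewer than 8 passed in a direction, up to 3 of smallest p per list, and Cd34 and Ptprc. List genes with an unadjusted p of 0.05 or more are left out of the text except where a list's result turns on them, and Col3a1 and Ccl4 are named for their values without a pair. The members, lists, tests and most alternatives were chosen with earlier results of these data known. Scaling to total counts, and re-centring combined with a random mouse effect or with a pair left out, were added after seeing the data. No lists were tested as sets. Some genes, 1 of the 9 past the threshold among them, are not reported here, but counts over genes include them. Python 3.11.15 with matplotlib 3.10.9 drew the figures.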

Additional observations from a re-analysis of the deposited data

Results flagged for a closer look

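The population difference itself differed between diets, by the test of that difference, in 8 genes described here. As deposited, the interaction was 2.19 for Il21r, 1.64 for Cd3e, 1.49 for Cd3d, 1.41 for Nrp2, 1.37 for Cd3g, 1.30 for Ptger4, 1.23 for Irf1 and 1.03 for Jak2 on the log2 scale (limma adjusted p of 0.0102 to 0.0388, 3 against 3 pairs). Over all genes the median interaction was 0.36. Re-centring lowered each value by 0.33, to between 0.70 for Jak2 and 1.86 for Il21r, and 0 of the 8 then passed (adjusted p of 0.0954 to 0.42). Groups of 3 samples are too small for a check of single outlying samples.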

How the results depend on the processing

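The interaction of the 9 genes was above 0 under each of the alternatives run, but the calls depended on scaling, pairing and moderation. Against 9 genes higher and 0 lower, 0 passed in either direction with no replicate block (52 and 0 at an unadjusted p under 0.05), after re-centring (36 and 18), after re-centring with no replicate block (17 and 3) or with a random mouse effect (43 and 17), after quantile normalization (34 and 19), with no trend (94 and 3) and in the plain test (89 and 0). Scaling to total counts gave 4, all among the 9 (Il21r, Nrp2, Cd3d and Cd3e). The replicate block as a random effect gave 7, of which 5 were among the 9 (Cd3d, Cd3e, Cd3g and Jak2 did not pass, while Ikbkb and Sirt1 did), robust moderation 13, voom on recovered counts 15, a minimum of 50 in 6 samples 11, and no filter and a pseudocount of 10 gave 9 each, the last 5 settings holding all 9. Left out 1 pair at a time, 0 to 28 genes were higher and 0 to 1 lower: 4 without HFD pair 1, 18 without HFD pair 2, 9 without HFD pair 3, 1 (Il21r) without LFD pair 1, 0 without LFD pair 2 (85 at an unadjusted p under 0.05) and 28 without LFD pair 3, the pair with the shallowest library. The 1 lower gene was Ccl4, a chemokine gene (-1.35, adjusted p = 0.0168), without HFD pair 2 and Gzmb without HFD pair 3. Re-centred and with 1 pair left out, 0 to 1 genes were higher and 0 to 1 lower, Il21r without LFD pair 3 and Gzmb without HFD pair 3. The median shift of 0.37 between diets ran from 0.279 to 0.445 with 1 pair left out, was 0.26 on total counts and was 0.000278 after quantile normalization, which equalizes the samples by construction. Fn1 changed sign only with re-centring and without LFD pair 3 (-0.0458). Otherwise the cause of the changes was not tested. The mouse as a term rests on shared sample numbers, and 3 mice per diet and libraries as shallow as 78316 counts limit what could be detected.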
